A study of Mus musculus with 35 samples.

Results

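The comparison set the 5 RNA-seq libraries of mouse haematopoietic cells carrying G-NHA9-21FGAA (spelled G-NHX9-21FGAA in the labels) against the 5 libraries of cells carrying G-NHA9-ΔDNA (G-NHX9-DDNA), which are 10 of the 35 libraries of the series, and every gene in the count table was a candidate. Both constructs are forms of G-NHA9, the leukaemia fusion of the N-terminal part of the nucleoporin NUP98 to the C-terminal part of HOXA9 with its homeodomain, tagged with mEGFP. G-NHA9-21FGAA carries alanine pairs in place of the phenylalanine-glycine (FG) motifs in the C-terminal stretch of the NUP98 part. It keeps the FG motifs of the N-terminal stretch and an intact homeodomain. G-NHA9-ΔDNA keeps the full run of FG motifs and carries substitutions in the homeodomain that impair DNA binding. The comparison therefore asks how cells with partial FG loss and an intact homeodomain differ from cells with all FG motifs and weakened DNA binding.

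The cells of every group were lineage-negative haematopoietic stem and progenitor cells of C57BL/6 mice, transduced with lentivirus. They were sorted for mCherry and, with a fusion, mEGFP, and grown for 1 week in methylcellulose medium. The medium held growth factors for myeloid and erythroid cells, and GM-CSF was added. The labels give an age of 8 weeks for all 10 libraries compared and for G-NHA9-midi-21FGAA. Among the other groups used, empty-vector replicates 4 and 5 are labelled 9 and 10 weeks and G-NHA9 replicate 1 is labelled 11 weeks. The study describes donor mice of both sexes, and each of the 10 libraries held Xist together with Y-linked transcripts. The empty-vector group (Empty in the labels) had the same culture without a fusion. Among the G-NHA9-21FGAA libraries Xist ran from 403 to 860 CPM and the Y-linked Eif2s3y from 3.70 to 16.1 CPM. The libraries are not tied to separate animals or cultures by the labels. Each p-value therefore measures only the spread between libraries of a condition, estimated over all 35, which may not be the spread between animals or cultures. The cultures held markers of several myeloid and other lineages, and fewer cells of a type and less RNA per cell cannot be told apart.

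HOXA9 is a homeodomain transcription factor that binds DNA with PBX and MEIS partners of the TALE homeobox family and keeps immature blood cells from differentiating. The HoxA cluster genes are active in haematopoietic stem cells and are silenced as myeloid cells mature. FG repeats of nucleoporins interact weakly with one another and with nuclear transport factors, and in NUP98 fusions they bring the protein together in nuclear condensates at the sites that its DNA-binding part occupies.

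Library totals ran from 37911026 to 66910028 counts in G-NHA9-21FGAA and from 41240027 to 47703538 in G-NHA9-ΔDNA, and 3 counts in a library were worth 0.0423 to 0.0716 CPM (counts scaled to library size with TMM factors, the level used throughout). The first principal component of the 10 libraries held 30.6% of the variance over the 500 most variable genes and separated the constructs, with G-NHA9-21FGAA at 8.84 to 16.5 and G-NHA9-ΔDNA at -18.2 to -10.0. The second held 27.9% and spread the libraries within each construct. G-NHA9-21FGAA replicates 4 and 5 lay at 19.3 and 19.6 on it and were rich in Mcpt1, a mucosal mast cell protease, with 378 and 185 CPM against 30.5 to 69.5 CPM in the other three. At the other end lay G-NHA9-21FGAA replicates 1 and 3 and G-NHA9-ΔDNA replicate 1, at -20.6, -13.0 and -16.2. These 3 libraries held 442, 617 and 240.1 CPM of the predicted gene Gm10800, picked like Mcpt1 after the values were seen, against 7.70 to 49.3 CPM in the other seven. The replicate 1 libraries of both constructs also shared a high level of Fosb, an immediate early transcription factor picked the same way, at 57.9 and 54.5 CPM against 1.04 to 4.86 CPM in the other eight. When 1000 genes were used the first component (27.6%) followed this spread within the constructs and no longer separated them. The part of these features in the results was not tested, and the counts without these libraries are given beside the main ones.

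**Figure D1:**
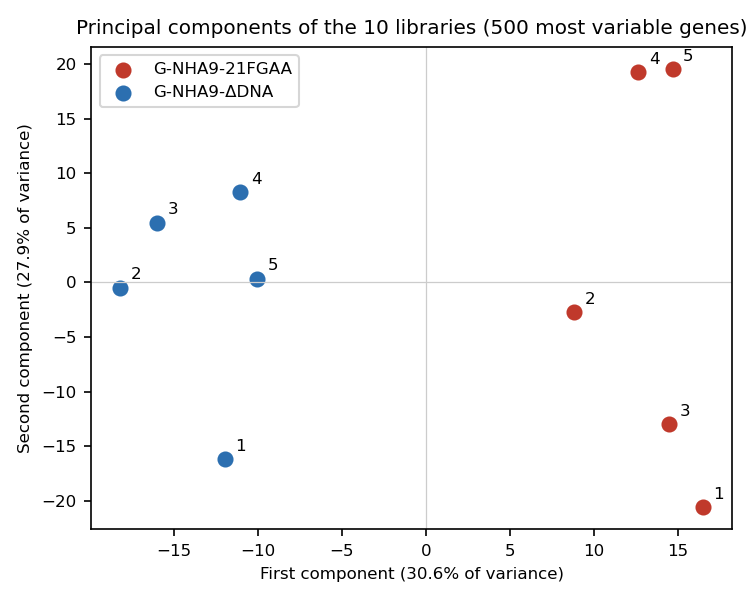
Each point is 1 library, numbered by replicate, at its score on the first (x axis) and second (y axis) principal component of log2 CPM over the 500 most variable genes. The constructs separate on the first component, which holds 30.6% of the variance, while the second, with 27.9%, spreads libraries of the same construct.

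In all, 178 of 17166 tested genes (1.04%) differed between the constructs, by the quasi-likelihood test of edgeR and a Benjamini-Hochberg adjusted p under 0.05, which is the test behind every adjusted p given here. Of these, 147 (0.856% of genes tested) were higher in G-NHA9-21FGAA and 31 (0.181%) were lower. Against the shared empty-vector libraries, 14.6% and 12.5% of genes were higher and lower in G-NHA9-21FGAA, and 9.85% and 7.36% in G-NHA9-ΔDNA. The higher genes had a median log2 fold change of 1.58, against -0.96 in the lower group and -0.00 over all genes tested. A fitted difference of 4-fold or more was seen in 56 of the higher and 3 of the lower genes.

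The 5 and 5 libraries did not overlap in 154 of the 178 genes, where 2.75% of all tested genes showed no overlap. Many of the changed genes were near the limit of detection, since 62 of the higher and 8 of the lower genes averaged under 1 CPM over the 10 libraries. Without G-NHA9-21FGAA replicates 4 and 5, 109 genes were called higher and 16 lower. Without the 3 libraries rich in Gm10800, 88 were higher and 11 lower. The number of lower genes also fell to 16 without G-NHA9-ΔDNA replicate 2.

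**Figure D2:**
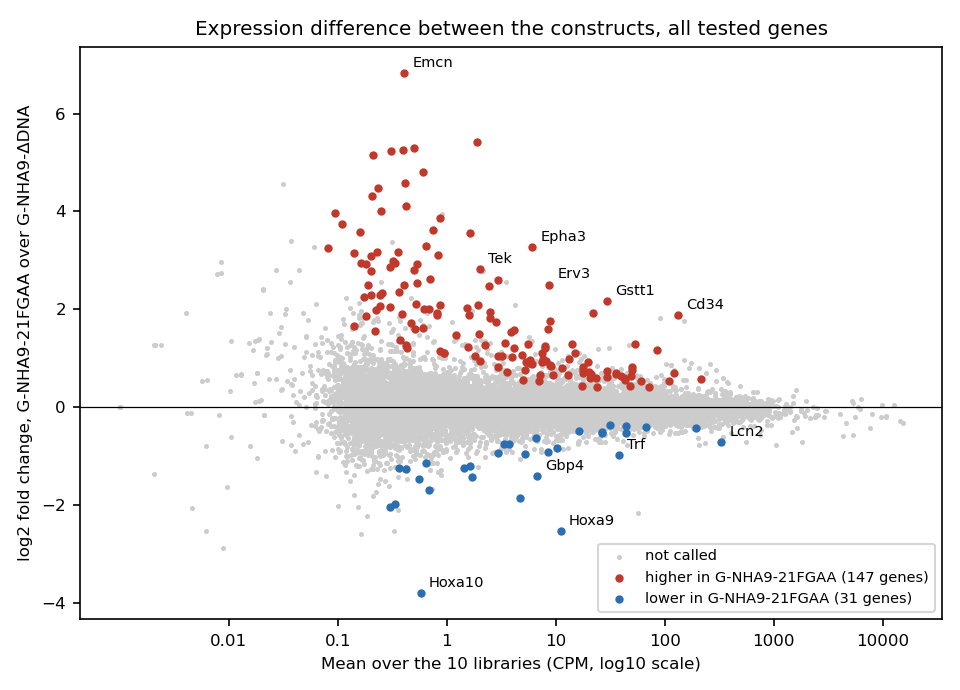
Each point is 1 of 17166 tested genes, placed by its mean over the 10 libraries (x axis, CPM, log scale) and its fitted log2 fold change of G-NHA9-21FGAA over G-NHA9-ΔDNA (y axis). The 147 genes called higher (red) outnumber the 31 called lower (blue) and reach larger changes, and most of the biggest fold changes lie at low means.

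The 12 largest increases in G-NHA9-21FGAA, taken from called genes that reached a mean of 5 CPM and did not overlap, included Cd34, Epha3, Lifr, Gstt1 and Rab38. Cd34, the sialomucin that marks haematopoietic progenitors and vascular endothelium (mm10 chromosome 1, 194938819 to 194961279), stood at 184, 189, 187, 222 and 247 CPM in the 5 G-NHA9-21FGAA libraries and at 44.1, 65.0, 55.5, 66.3 and 48.0 CPM in the 5 G-NHA9-ΔDNA libraries. The lowest G-NHA9-21FGAA library was far above the highest G-NHA9-ΔDNA library, and Cd34 was 3.69-fold higher (log2 fold change 1.88 ± 0.19 (SE), adjusted p = 1.1e-07). It was the most abundant of the 12. Empty-vector cells held 36.9 ± 9.25 CPM (SD, n = 5) and G-NHA9 cells 220.0 ± 12.9 CPM, beside 206 ± 27.7 CPM in G-NHA9-21FGAA. Cd34 shares exon bases with Gm16897 on the opposite strand, and the strand setting used in counting is not given in the sources used here.

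Epha3, a receptor tyrosine kinase for A-type ephrins on neighbouring cells (mm10 chromosome 16, 63543534 to 63864175), was at 9.67, 10.6, 7.63, 15.2 and 11.7 CPM in G-NHA9-21FGAA and at 1.53, 1.33, 1.58, 0.880 and 0.336 CPM in G-NHA9-ΔDNA. All 5 G-NHA9-21FGAA libraries were well above all 5 others, a 9.65-fold difference (log2 fold change 3.27 ± 0.35 (SE), adjusted p = 4.1e-07), and G-NHA9-21FGAA also lay above the 2.63 ± 0.550 CPM of G-NHA9 cells. Lifr, the subunit that binds leukaemia inhibitory factor and signals together with gp130, stood at 29.8, 33.1, 30.1, 42.0 and 36.9 CPM against 4.17, 10.6, 7.76, 13.8 and 9.09 CPM (log2 fold change 1.92 ± 0.25 (SE), adjusted p = 1.1e-05). The groups did not overlap, and the empty-vector and G-NHA9 means were 5.09 and 6.84 CPM, both under the G-NHA9-ΔDNA mean of 9.08 CPM. Tek, which encodes the angiopoietin receptor Tie2 of haematopoietic stem cells and endothelium, stood at 2.25, 2.36, 1.82, 5.97 and 5.25 CPM against 0.269, 0.585, 0.615, 0.547 and 0.493 CPM (log2 fold change 2.81 ± 0.40 (SE), adjusted p = 3.9e-05). Its level in G-NHA9-21FGAA replicates 4 and 5 was more than that of the other three, though each of these was still above every G-NHA9-ΔDNA library.

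Gstt1, a glutathione S-transferase that detoxifies small electrophiles, was at 38.04, 74.2, 71.9, 34.3 and 20.6 CPM in G-NHA9-21FGAA and 5.08, 8.80, 15.2, 11.2 and 13.1 CPM in G-NHA9-ΔDNA (log2 fold change 2.16 ± 0.33 (SE), adjusted p = 1.4e-04). Its G-NHA9-21FGAA libraries differed by more than 3-fold among themselves, and the lowest was still above all of G-NHA9-ΔDNA. Erv3, an endogenous retroviral sequence, was at 14.0, 8.45, 12.1, 18.9 and 20.7 CPM against 1.10, 0.702, 1.29, 5.42 and 4.61 CPM (log2 fold change 2.50 ± 0.51 (SE), adjusted p = 0.0055). Zfp945, a zinc finger gene, was at 21.8, 18.0, 20.6, 22.5 and 16.8 CPM against 7.69, 7.54, 9.30, 8.39 and 7.82 CPM (log2 fold change 1.29 ± 0.14 (SE), adjusted p = 7.8e-07).

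Rab38, a small GTPase that sorts cargo to lysosome-related organelles, was 2.43-fold higher, at 67.9 to 88.4 CPM against 23.6 to 37.8 CPM (log2 fold change 1.28 ± 0.21 (SE), adjusted p = 3.9e-04). The remaining members of the 12 were Tmem56, a multi-pass membrane protein, at 13.6 ± 1.21 against 3.98 ± 1.05 CPM, and the transcript A730089K16Rik, at 12.8 ± 3.01 against 4.26 ± 1.75 CPM. Diras2, a Ras-like GTPase, stood at 7.83 ± 2.04 against 3.18 ± 1.32 CPM. Crim1, a transmembrane regulator of bone morphogenetic proteins, stood at 11.1 ± 2.94 against 4.82 ± 0.785 CPM and Abca4, a lipid transporter best known from photoreceptors, at 11.2 ± 2.07 against 4.71 ± 1.58 CPM. Adjusted p-values of these 5 ran from 6.6e-04 to 0.03 and none overlapped between groups. Of the 12 genes, 11 were called in each of the 10 fits that left out 1 library, the exception being Abca4, called in 5.

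**Figure D3:**
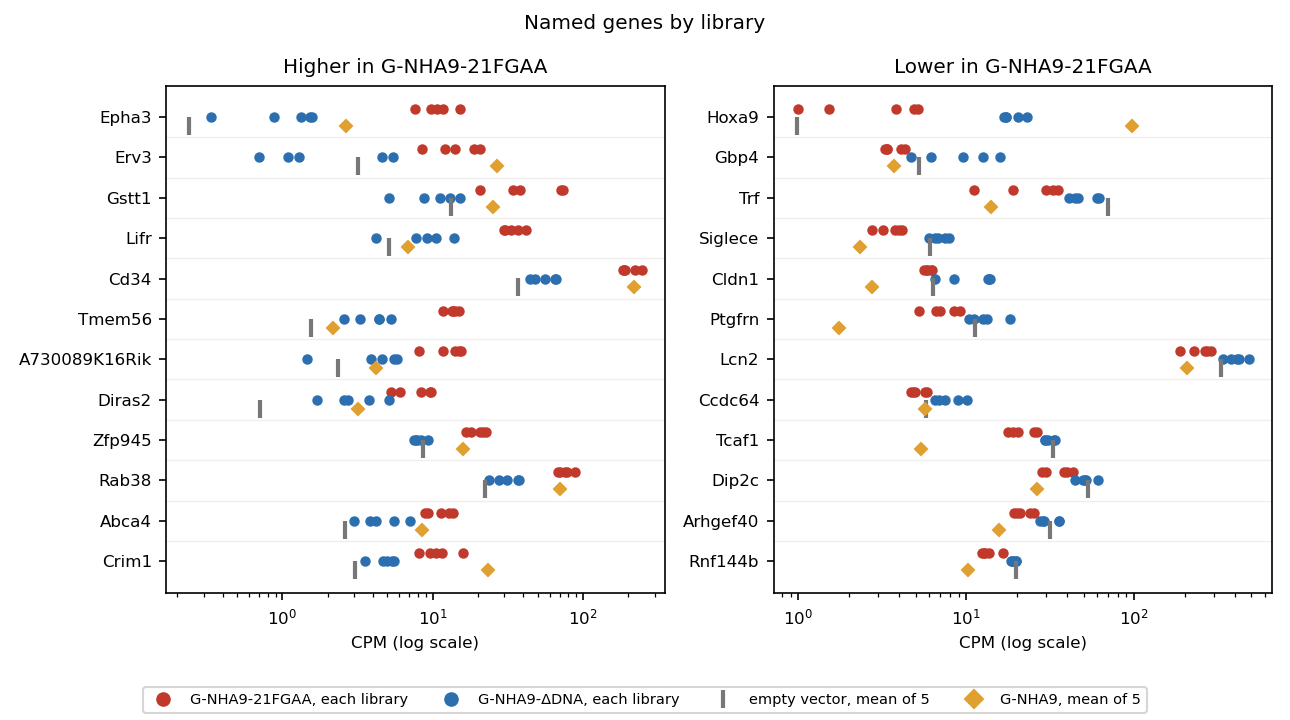
CPM on a log scale (x axis) of the 12 genes with the largest increase (left) and the 12 with the largest decrease (right) in G-NHA9-21FGAA among called genes averaging 5 CPM or more without overlap. Red and blue points are single libraries of the 2 constructs, grey bars are means of 5 empty-vector libraries and diamonds means of 5 G-NHA9 libraries. The left panel shows Cd34 at 184 CPM and above in every G-NHA9-21FGAA library, and the right panel shows most decreases to be smaller than those of Hoxa9 and Gbp4.

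Among abundant genes the increases were smaller, and the following were picked after their values were seen, as the genes called higher with means of 50 CPM or more beside Cd34 and Rab38. Prnp, the prion protein, rose from 51.8 ± 8.75 to 116 ± 8.80 CPM (SD, n = 5, adjusted p = 7.5e-04). Msi2, an RNA-binding protein that maintains haematopoietic stem cells, was at 64.3 ± 7.16 CPM against 36.4 ± 1.93 CPM (adjusted p = 1.3e-04). Muc13, a membrane mucin, was at 63.0 ± 8.78 against 37.3 ± 6.74 CPM (adjusted p = 0.017). Fut8, which adds the core fucose of N-glycans, was at 151 ± 35.7 against 93.3 ± 7.18 CPM (adjusted p = 0.0046). The enzymes Sord, Gmpr and Adk and the phosphoinositide-binding adaptor Dapp1 had fitted log2 fold changes of 0.58, 0.54, 0.40 and 0.54. In the 10 fits that left out 1 library, Dapp1 was called in 3, Sord in 4, Muc13 in 7 and Gmpr in 9, and the others of this paragraph in all.

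Several genes with large fitted increases were at low levels in G-NHA9-ΔDNA, and 17 of the 147 had at most 3 reads in every G-NHA9-ΔDNA library. Those described here were picked after their values were seen. Emcn, endomucin, a sialomucin of endothelium and stem cells, was at 0.999, 0.642, 0.568, 0.944 and 0.907 CPM in G-NHA9-21FGAA and had a single read among the 5 G-NHA9-ΔDNA libraries, against 212 reads in the 5 G-NHA9-21FGAA libraries. Scaled for depth this is a ratio of 185-fold with a 95% exact interval of 32.9 to 7352, which covers counting error only (adjusted p = 3.9e-09). Pcolce2, an enhancer of procollagen processing, had 1033 reads against 19. Hnf4a, a nuclear receptor of hepatocytes, stood at 1.64 ± 0.776 CPM against 0.109 ± 0.0602 CPM (adjusted p = 5.8e-07), and G-NHA9 cells had 4.19 CPM. Chl1, a neural adhesion protein of the L1 family, averaged 1.18 CPM in G-NHA9-21FGAA against 0.0393 CPM in G-NHA9-ΔDNA and 0.0829 CPM in G-NHA9 cells, and Slit2, a secreted ligand of Robo receptors, 0.917, 0.157 and 0.146 CPM. Both means were highest in G-NHA9-21FGAA of these 3 groups, while that of Hnf4a was highest with the unaltered fusion.

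The Hox genes moved in both directions. Of 21 tested genes of the 4 clusters, 5 were higher in G-NHA9-21FGAA and 2 lower, beside 0.856% and 0.181% of all tested genes, with a list median of 0.31 on the log2 scale. The genes lower in G-NHA9-21FGAA were Hoxa9 and its neighbour Hoxa10, and those higher were Hoxa2, Hoxa3, Hoxa5, Hoxa6 and Hoxc6. Apart from Hoxa9 these averaged under 1 CPM over the 10 libraries and were named after their values were seen.

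Hoxa9 (mm10 chromosome 6, 52223100 to 52231089, minus strand) stood at 4.91, 3.83, 5.15, 1.00 and 1.53 CPM in G-NHA9-21FGAA and at 17.3, 20.3, 17.1, 16.9 and 23.0 CPM in G-NHA9-ΔDNA. Every G-NHA9-ΔDNA library held more than 3 times the highest G-NHA9-21FGAA library, and the fitted difference was 5.79-fold (log2 fold change -2.53 ± 0.34 (SE), adjusted p = 2.0e-05). Empty-vector cells held 0.975 ± 0.221 CPM and G-NHA9 cells 96.6 ± 14.4 CPM. Cells with G-NHA9-midi-21FGAA, whose homeodomain is also intact, held 1.12 ± 0.720 CPM. Both constructs carry part of HOXA9, so reads of construct RNA may have been counted with the mouse gene and the sources cannot be told apart. Nup98, whose N-terminal part the constructs share, was at 139 to 199 CPM against 180.1 to 232 CPM, a difference in the same direction that did not pass the test (log2 fold change -0.34 ± 0.12 (SE), adjusted p = 0.26). Nup98 passed with a covariate for sex-linked transcripts (adjusted p = 0.0015, log2 fold change -0.38). It also passed with replicate numbers as a block (adjusted p = 0.014, log2 fold change -0.34), and in its other alternatives it did not.

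Hoxa10 (mm10 chromosome 6, 52231197 to 52240854), which no construct carries, was at 0.0851, 0, 0.0587, 0.0563 and 0.191 CPM in G-NHA9-21FGAA against 1.41, 0.772, 1.07, 0.903 and 1.23 CPM in G-NHA9-ΔDNA (log2 fold change -3.80 ± 0.49 (SE), adjusted p = 9.2e-06). Empty-vector cells held 0.0634 ± 0.0751 CPM, and the G-NHA9-ΔDNA level lay between that and the 4.24 ± 0.845 CPM of G-NHA9 cells. Hoxa5 was at 1.72, 1.70, 1.51, 0.732 and 1.38 CPM in G-NHA9-21FGAA against 0.351, 0.375, 0.266, 0.119 and 0.515 CPM (log2 fold change 2.09 ± 0.30 (SE), adjusted p = 3.9e-05). Hoxa3 was at 0.493 to 1.70 CPM against 0.0819 to 0.381 CPM (adjusted p = 2.5e-04), and shares exon bases with several antisense transcripts of the cluster. Both Hoxa2 and Hoxa3 also share exon bases with Gm28308 on their own strand. For Hoxa2 and Hoxa6 the G-NHA9-21FGAA ranges were 0.197 to 0.638 and 0.0986 to 0.411 CPM, and the G-NHA9-ΔDNA ranges were 0 to 0.112 and 0 to 0.123 CPM (adjusted p = 0.001 and 0.0068).

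The direction of the difference thus split along the cluster between the Hoxa2 to Hoxa6 side and the Hoxa9 to Hoxa10 side, with Hoxa4 and Hoxa7 not called (log2 fold changes 0.43 and 1.36). Hoxa7 lies between both sides, and its adjusted p was 0.066. Each HoxA gene named here had a higher mean in G-NHA9 cells than in either altered construct, and there Hoxa3, Hoxa5 and Hoxa7 averaged 9.25, 12.1 and 18.8 CPM. Hoxc6, at 0.319 ± 0.137 against 0.0564 ± 0.0782 CPM, was called in 4 of the 10 fits that left out 1 library. None of the 10 TALE cofactor genes passed the test, beside 1.04% of all tested genes, which in a list this short is no result. The most abundant, Pbx2, had a log2 fold change of -0.09. Over the list these ran from -0.72 to 0.55, with a median of 0.21 and a lowest adjusted p of 0.074.

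**Figure D4:**
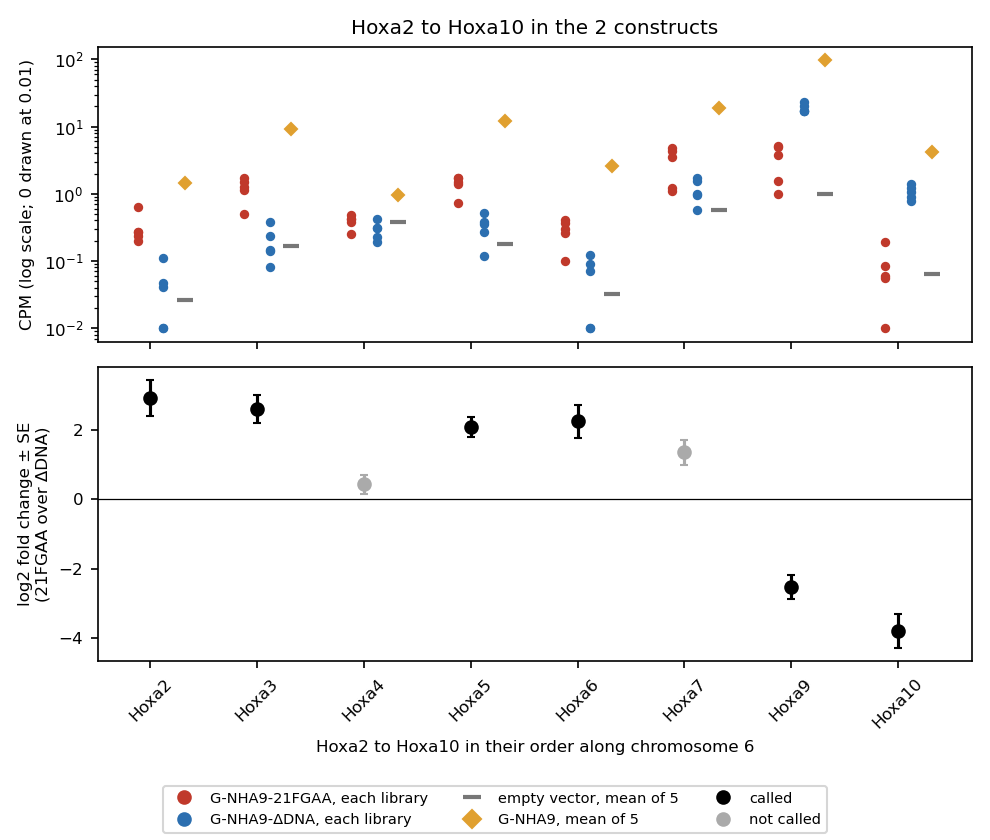
HoxA cluster genes from Hoxa2 to Hoxa10 in their order along chromosome 6 (x axis). The upper panel gives CPM on a log scale for each library of the 2 constructs, with empty-vector and G-NHA9 means, and the lower panel the fitted log2 fold change with its SE, black where called. Hoxa2, Hoxa3, Hoxa5 and Hoxa6 are above 0, Hoxa9 and Hoxa10 are below it, and G-NHA9 exceeds both constructs throughout.

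Beside Hoxa9, the 12 largest decreases in G-NHA9-21FGAA chosen the same way were led by Gbp4, Trf and Siglece. Gbp4, an interferon-induced guanylate-binding protein, was at 3.36, 4.08, 3.29, 4.30 and 3.37 CPM in G-NHA9-21FGAA and 6.18, 4.68, 12.6, 16.0 and 9.59 CPM in G-NHA9-ΔDNA (log2 fold change -1.41 ± 0.26 (SE), adjusted p = 0.0014). Gbp4 shares exon bases with Gbp8 and Gbp9 on the same strand. The G-NHA9-21FGAA libraries lay close together and the G-NHA9-ΔDNA libraries differed by more than 3-fold, with no overlap. Gbp4 was the 1 called gene of 38 tested interferon-induced genes, whose median was -0.01. Of all tested genes 1.04% were called and 0.181% were lower, so this count allows no reading of the list. Siglece, an inhibitory sialic acid receptor of myeloid cells, was at 3.997, 2.73, 3.74, 4.14 and 3.18 CPM against 7.44, 6.81, 6.53, 6.04 and 7.86 CPM (log2 fold change -0.96 ± 0.17 (SE), adjusted p = 0.0013).

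Lcn2, the siderophore-binding lipocalin of neutrophil granules, was at 288, 227, 272, 263 and 189 CPM against 487, 419.6, 412, 338 and 380.1 CPM (log2 fold change -0.72 ± 0.17 (SE), adjusted p = 0.03), and every G-NHA9-21FGAA library was under every G-NHA9-ΔDNA library. Trf, the iron carrier transferrin, was at 29.8, 35.2, 33.0, 19.1 and 11.1 CPM against 61.4, 60.4, 44.2, 40.8 and 46.1 CPM (log2 fold change -0.98 ± 0.25 (SE), adjusted p = 0.043), with the lowest values in G-NHA9-21FGAA replicates 4 and 5. Cldn1, a tight-junction claudin, was at 6.19, 5.80, 6.24, 5.61 and 5.82 CPM in G-NHA9-21FGAA against 13.8, 13.6, 13.5, 8.51 and 6.50 CPM in G-NHA9-ΔDNA (log2 fold change -0.92 ± 0.23 (SE), adjusted p = 0.038). Its G-NHA9-ΔDNA libraries fell into higher values in replicates 1 to 3 and lower ones in 4 and 5, the latter near the G-NHA9-21FGAA level.

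The others of the 12 were Ptgfrn, a membrane partner of tetraspanins, Ccdc64, a dynein cargo adaptor, Tcaf1, a regulator of TRP channels, Dip2c, Arhgef40, a guanine nucleotide exchange factor, and Rnf144b, a ubiquitin ligase. Their log2 fold changes ran from -0.84 for Ptgfrn to -0.48 for Rnf144b, with adjusted p-values from 0.0092 to 0.045. Of the 12, Hoxa9, Gbp4, Siglece and Rnf144b were called in each of the 10 fits that left out 1 library, whereas Trf, Cldn1 and Tcaf1 were called in 2 of them, Lcn2 in 4, Ccdc64 and Arhgef40 in 5, Dip2c in 7 and Ptgfrn in 9. Without G-NHA9-21FGAA replicates 4 and 5, 4 of the 12 decreases and 10 of the 12 increases were called.

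Called genes were found in 8 of the gene lists for cell types and cell functions. Of 817 tested genes in 37 lists 15 (1.84%) were called, beside 1.04% of all tested genes, and 29 lists held none. At that overall share most of these lists would hold about 1 call or none, so a list without a call is no result about its genes. List medians lay between -0.45 and 0.46 on the log2 scale, against -0.00 over all genes. Among 20 stem and progenitor markers Cd34 and Tek were higher and none lower, with a median of 0.32 and 16 members above 0. Kit, the stem cell factor receptor, was at 169.9 ± 48.1 against 139 ± 35.2 CPM and Meis1, a partner of HOXA9, at 31.7 ± 4.93 against 24.3 ± 4.58 CPM, neither called and both named after their values were seen.

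Lists of maturing myeloid cells had medians below 0, and their 1 called gene, Lcn2, stands beside an overall share of 0.181% of genes called lower, which in lists this short allows no reading of the others. The 20 late neutrophil markers had the lowest median of all lists, -0.45, with 2 members above 0 and Lcn2 the 1 called gene. Their summed level was 12059 to 20422 CPM in G-NHA9-21FGAA and 21788 to 27924 CPM in G-NHA9-ΔDNA, without overlap. It averaged 22451 CPM in empty-vector cells. The lowest sums were those of G-NHA9-21FGAA replicates 4 and 5, at 16740 and 12059 CPM. Sums of several other lists did not overlap either. Among them were complement components (1218 to 1516 against 1562 to 1919 CPM) and, higher in G-NHA9-21FGAA, stem and progenitor markers (904 to 1250 against 643 to 872 CPM). Ltf, lactoferrin, and Cd177, a neutrophil surface protein, named after their values were seen, had log2 fold changes of -0.78 and -0.77 with adjusted p-values of 0.13 and 0.17. None of the 10 eosinophil markers was called (median -0.34, none above 0), nor any of the 8 primary granule genes (median -0.27), which include Mpo, myeloperoxidase, at 373 ± 31.96 against 434 ± 130.2 CPM. None of 27 monocyte and macrophage markers was called either (median -0.15), and Lyz2, lysozyme, stood at 12907 ± 2127 against 15655 ± 2246 CPM. Of the 6 phagocyte oxidase subunits none was called and none was above 0 (median -0.17).

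Lists of the mast cell, megakaryocyte and erythroid lineages had medians above 0, and the absence of a called gene in lists this short is what the overall share of 1.04% gives. The 20 tested mast cell and basophil markers had a median of 0.29 and summed to 5088 to 7285 CPM against 3868 to 5636 CPM, which overlapped. Cpa3, the mast cell carboxypeptidase, was at 1801 ± 303 against 1407 ± 299.8 CPM. The 15 megakaryocyte markers had a median of 0.32, with Pf4, platelet factor 4, at 565 ± 208 against 419.7 ± 135 CPM. The 24 erythroid markers had a median of 0.09, with Hbb-bs, a beta globin, at 433 ± 281 against 435 ± 257 CPM. Only 2 of 12 B cell markers were expressed enough to be tested, and their summed level was at most 1.72 CPM in any of the 10 libraries. Of the called genes elsewhere, Lck, a Src-family kinase of lymphocytes, was at 2.43 ± 0.714 against 1.17 ± 0.388 CPM (adjusted p = 0.0025) and H2-Ob, a chain of a class II peptide-loading regulator, at 14.6 ± 3.28 against 8.43 ± 2.91 CPM (adjusted p = 0.031). No other member of the T and natural killer cell list (8 tested, median 0.09) or the antigen presentation list (22 tested, median -0.23) was called, both genes overlapped between the groups, and H2-Ob was called in 3 of the 10 fits that left out 1 library. The T and natural killer cell list summed to 285 to 487 CPM against 177 to 234 CPM, most of it from Gzmb, granzyme B, at 338 ± 71.5 against 183 ± 24.5 CPM (adjusted p = 0.15).

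Apart from the serine and one-carbon genes, the lists of growth and metabolism named next had medians from -0.08 to 0.10. No member was called, beside 1.04% of all genes, among 40 DNA replication genes (median -0.04), 40 mitosis genes (median 0.02), 80 cytosolic ribosomal protein genes (median 0.10), 25 glycolysis genes (median -0.08) or 25 sterol synthesis genes (median -0.02). Of the 80 ribosomal protein genes 78 lay above 0, as did 43 of 49 ribosome assembly genes and 15 of the 40 DNA replication genes. The 24 tested serine and one-carbon genes had a median of 0.23, with 21 above 0 and none called. These leanings were not tested. Mki67, a marker of cycling cells, was at 775 ± 109.9 against 764 ± 126 CPM. Against empty-vector cells 39 and 37 of the 40 mitosis genes were higher in G-NHA9-21FGAA and G-NHA9-ΔDNA, beside 14.6% and 9.85% of all tested genes, in comparisons that share the empty-vector libraries.

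**Figure D5:**
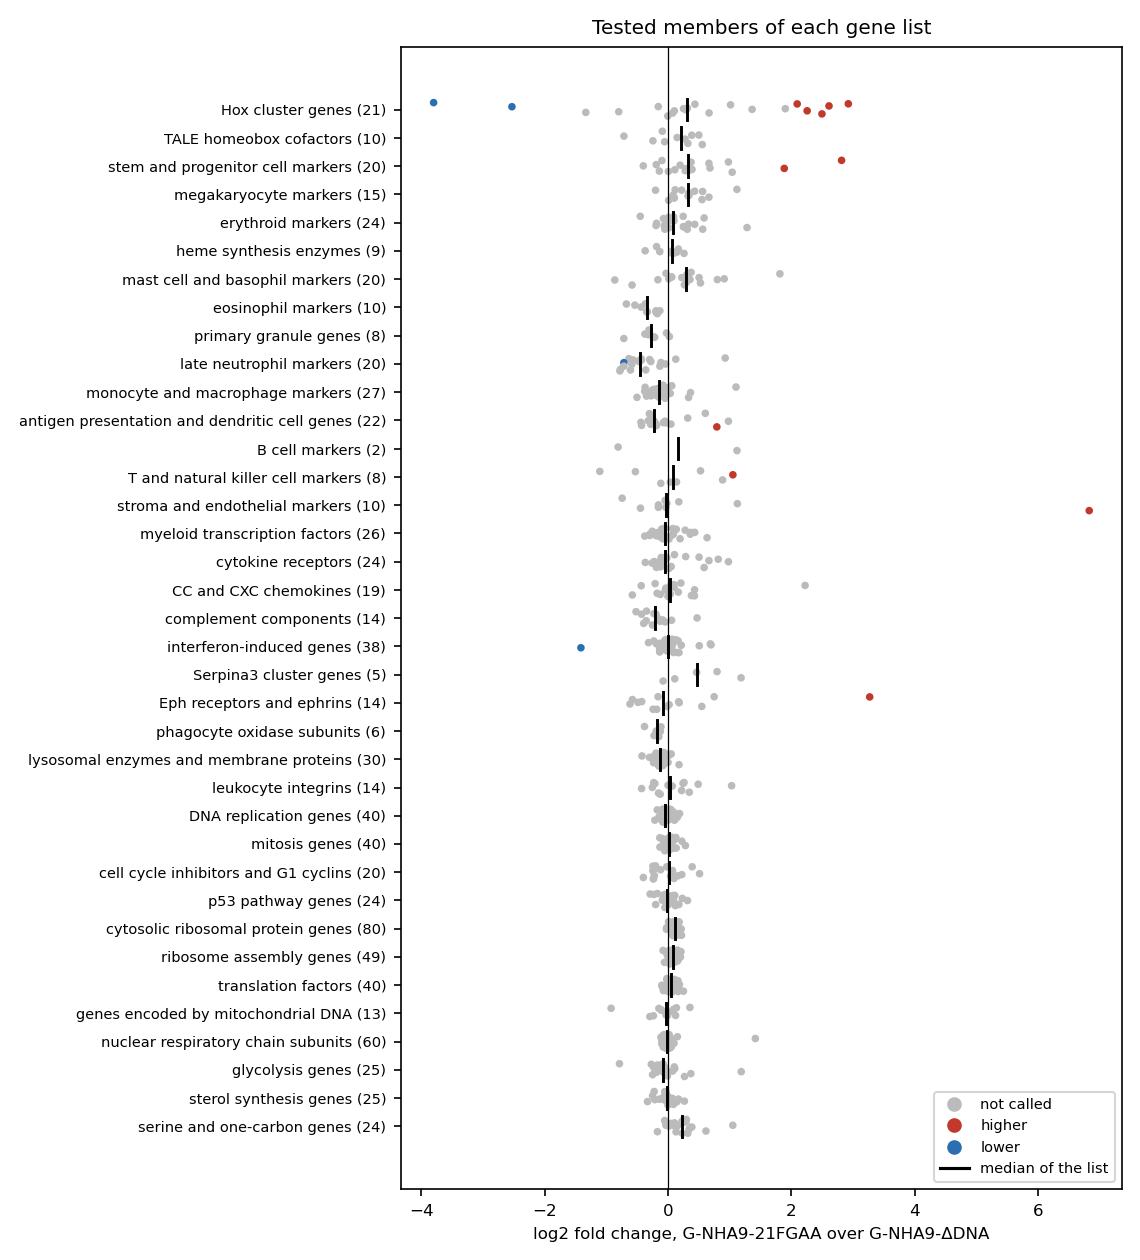
Each point is a tested member of a gene list (y axis, with the number tested), at its fitted log2 fold change of G-NHA9-21FGAA over G-NHA9-ΔDNA (x axis), and the black bar is the list median. Medians lie between -0.45 (late neutrophil markers) and 0.46 (Serpina3 cluster genes), and coloured points, the called members, are single genes in most lists that have any.

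The levels in the other conditions place these differences. For 98 of the 147 higher genes the empty-vector mean was at or below the G-NHA9-ΔDNA mean, for 42 it lay between the constructs nearer to G-NHA9-ΔDNA, and for 7 nearer to G-NHA9-21FGAA. G-NHA9 cells were at or above the G-NHA9-21FGAA mean for 60 of the 147 and at or below the G-NHA9-ΔDNA mean for 27. For the 31 lower genes the empty-vector mean was at or above G-NHA9-ΔDNA for 9, between the constructs for 17, and at or below G-NHA9-21FGAA for 5, while G-NHA9 cells were at or below G-NHA9-21FGAA for 22. These are positions of group means with no test.

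Against empty-vector cells, which both comparisons share, Cd34 had a log2 fold change of 2.48 ± 0.19 (SE) in G-NHA9-21FGAA and 0.59 ± 0.18 in G-NHA9-ΔDNA, and Epha3 5.44 ± 0.41 and 2.17 ± 0.41. Lifr had 2.76 ± 0.26 and 0.83 ± 0.25, and Rab38 1.78 ± 0.21 and 0.50 ± 0.21. Of these differences that of Rab38 in G-NHA9-ΔDNA did not pass the test (adjusted p = 0.094). Hoxa9 had 1.74 ± 0.38 in G-NHA9-21FGAA and 4.27 ± 0.38 in G-NHA9-ΔDNA, and both passed. Trf had -1.45 ± 0.25 and -0.47 ± 0.25, of which the difference in G-NHA9-21FGAA passed the test (adjusted p = 9.9e-05) and that in G-NHA9-ΔDNA did not (adjusted p = 0.2).

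Comparisons of the same fit whose groups hold none of the 10 libraries gave a further measurement, and they share their empty-vector libraries. The gene filter, the scaling and the estimate of the spread came from all 35 libraries, these 10 among them. In G-NHA9 cells, with both FG motifs and homeodomain intact, against empty-vector cells, 102 of the 147 genes were higher and 2 lower, where 16.8% and 15.2% of all tested genes were, and their median log2 fold change was 1.21 (0.01 over all genes). Of the 31 lower genes, 4 were higher and 20 lower in G-NHA9 cells, with a median of -0.92. G-NHA9-midi-21FGAA, a truncated form whose FG motifs are all substituted and whose homeodomain is intact, gave 66 of the 147 higher and 3 lower than in empty-vector cells (9.54% and 7.3% of all genes), with a median of 0.76. For the 31 genes it gave 3 higher and 2 lower, with a median of -0.06. Of the 147 genes, 11 had at most 3 counts in every G-NHA9-ΔDNA and every empty-vector library. These could hardly be called lower than in empty-vector cells, so part of the split between higher and lower was fixed in advance. Genes that can be called in 1 comparison are more easily called in another, and no correction was made for that. This comparison was added after the main results were known.

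The sequences before the start sites of 4 of these genes are shown because Cd34 and Hoxa9 are the most abundant of the 12 increases and the largest of the 12 decreases, and Zfp945 and Cldn1 are the genes, of those searched one by one, whose windows hold the letters TGATTTA, the core of a joint PBX and HOX9-type site. Each is the RefSeq window from 250 bases before to 50 bases after the start of transcription, in build GRCm38.p6, written 5′ to 3′ on the strand of the gene, and capitals mark TGATTTA or TGACAG, the MEIS core, on either strand.
Cd34, chr1:194938571-194938870, plus strand: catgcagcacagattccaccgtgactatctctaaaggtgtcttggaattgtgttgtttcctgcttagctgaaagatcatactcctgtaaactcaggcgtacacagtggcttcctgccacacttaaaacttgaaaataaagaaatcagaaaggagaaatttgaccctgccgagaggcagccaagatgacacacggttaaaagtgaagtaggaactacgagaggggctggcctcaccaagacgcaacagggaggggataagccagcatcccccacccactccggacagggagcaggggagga
Hoxa9, chr6:52227321-52227620, minus strand: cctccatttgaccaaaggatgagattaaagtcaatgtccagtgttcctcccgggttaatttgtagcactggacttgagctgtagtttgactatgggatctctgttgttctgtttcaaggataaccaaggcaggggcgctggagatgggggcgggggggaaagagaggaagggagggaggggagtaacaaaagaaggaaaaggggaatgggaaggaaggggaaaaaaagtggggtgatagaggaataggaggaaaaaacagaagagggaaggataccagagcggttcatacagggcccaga
Zfp945, chr17:22867085-22867384, minus strand: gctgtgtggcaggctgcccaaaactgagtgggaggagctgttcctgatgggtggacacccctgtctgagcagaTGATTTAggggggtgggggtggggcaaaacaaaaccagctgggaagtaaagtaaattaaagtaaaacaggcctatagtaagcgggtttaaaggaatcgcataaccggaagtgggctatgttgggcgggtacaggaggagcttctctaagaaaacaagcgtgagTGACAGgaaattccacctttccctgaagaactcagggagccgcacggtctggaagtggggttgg
Cldn1, chr16:26371790-26372089, minus strand: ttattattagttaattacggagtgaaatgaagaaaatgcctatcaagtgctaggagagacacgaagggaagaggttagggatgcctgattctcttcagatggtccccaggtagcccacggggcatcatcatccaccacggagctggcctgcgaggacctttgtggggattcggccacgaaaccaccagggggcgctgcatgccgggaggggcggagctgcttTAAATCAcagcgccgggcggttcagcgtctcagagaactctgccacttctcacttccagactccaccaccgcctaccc
The Cd34 and Hoxa9 windows hold neither core, that of Zfp945 holds both, and that of Cldn1 holds TGATTTA on the opposite strand. Windows were found for 113 of the 147 higher genes (151 windows) and 21 of the 31 lower genes (25 windows). TGATTTA was in 5 and 1 of these, or 3.31% and 4.0%, against 1.58% of the windows of all tested genes and 2.97% of all windows. TGACAG was in 19.2% and 8.0%, against 17.1% and 19.2%. The genes searched one by one were those with the largest changes, the called list members and the check genes, where a window was found. No window was found for Gbp4, Trf, Ccdc64, Tmem56, A730089K16Rik, Rab38 and Hoxc6, which were not searched. Among the genes searched, TGACAG was also in windows of Gstt1, Tek, Hoxa2, Hoxa3, Siglece and Rnf144b. Both strings start with TGA and neither contains the other, and a match describes letters in these windows only.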

How the data were processed

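RNA of all samples was sequenced after stranded total RNA library preparation. The authors deposited whole-number read counts per gene for 35 libraries (7 conditions, 5 libraries each), and STAR 2.7.0d, HTSeq 0.11.2 and build mm10 are named in the submitters' processing notes. Whether counting used strand is not given in the sources used here. All 49671 genes were read, with no column left unused, and 17166 passed edgeR's filterByExpr. One edgeR 4.0.16 quasi-likelihood model (R 4.3.3, TMM scaling, robust) was fitted to all 35 libraries with condition as the term, and the contrast G-NHX9-21FGAA minus G-NHX9-DDNA was tested with Benjamini-Hochberg adjustment over the genes tested. Groups were taken from the sample labels. SE is the absolute log2 fold change divided by the square root of F. Samples of a construct differed by more than counting noise (chi-square per degree of freedom of at least 24.7 in all 20 pairs), and intervals and floors of 3 counts cover counting error only.

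The text names the 12 largest increases and 12 largest decreases of called genes averaging 5 CPM or more without overlap, up to 4 called members of each gene list with a mean of at least 1 CPM or, where none was called, its 2 most abundant members, Hoxa9, Nup98 and sex-linked transcripts. Other genes are said to be picked after their values were seen. The comparison, members and lists were chosen with earlier results of these data known. Alternatives were DESeq2 1.42.0, RLE size factors, raw library sizes, other filters, only the 10 libraries, a fold limit, a replicate block, a sex-transcript score and each library left out; sets of libraries that stood apart were left out after the data were seen. Scripts were tested on simulated data. Genes were placed with GENCODE M21, where 49326 of 49671 identifiers were found, and promoter windows came from RefSeq. Some genes of the lists are not reported here by name.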

Additional observations from a re-analysis of the deposited data

Results flagged for a closer look

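Of 70 groups of 5 libraries examined, 3 held a library far from the others. The limit used flags about 1 in 20 groups of normally distributed values, which was not checked here. Most genes examined were chosen for their differences between the constructs, so that rate may not apply. Emcn was at 0.0205 CPM in G-NHA9-ΔDNA replicate 3, where the other libraries of that construct had no read. That level is 1 read, and 1 read beside libraries without any is always flagged. Hoxa2 stood at 0.638 CPM in G-NHA9-21FGAA replicate 1, with the nearest library of that construct at 0.274 CPM. Hoxc6 stood at 0.190 CPM in G-NHA9-ΔDNA replicate 4, with the nearest at 0.0468 CPM.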

How the results depend on the processing

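Against 178 genes called (147 higher and 31 lower in G-NHA9-21FGAA), DESeq2 gave 281 (66 lower), keeping all 178. A 2-fold limit gave 115 (14 lower) and left 1025 and 517 calls against empty vector for G-NHA9-21FGAA and G-NHA9-ΔDNA. A minimum mean of 1 CPM gave 103 (87 higher, 16 lower), and no filter gave 17 lower genes and 1936 calls for G-NHA9-ΔDNA against empty vector. A covariate of sex-linked transcripts gave 57 lower genes. Leaving out G-NHA9-21FGAA replicates 4 and 5 gave 16 lower genes, and leaving out G-NHA9-21FGAA replicates 1 and 3 with G-NHA9-ΔDNA replicate 1 gave 99 calls (88 higher, 11 lower), both chosen after the data were seen. The cause of these moves was not tested. Leaving out 1 library at a time gave 124 to 183 calls, 107 to 152 higher and 16 to 31 lower, with the lowest without G-NHA9-ΔDNA replicate 1 (calls) and replicate 2 (lower). It gave 3419 to 4679 calls for G-NHA9-21FGAA and 1913 (without G-NHA9-ΔDNA replicate 3) to 3311 for G-NHA9-ΔDNA against empty vector. Of the 178, 95 higher and 8 lower genes were called in all 10 of these fits. A replicate block gave 279 calls (60 lower). Same-numbered libraries deviated together in 3 of 5 pairs (correlation above 0.1), most in replicates 1 and 2 (0.51 and 0.37). The mean correlation was 0.23 for the same number and -0.06 for other numbers, and 5 of 10 libraries correlated best with their own number. What the numbers stand for is not stated, the main fit did not pair the libraries by them, and these values do not settle whether it should. The first component held 27.6% with 1000 genes. Of the 35 genes whose alternatives were run one by one (the 24 largest changes, the called list members and Nup98), none changed direction. The other genes named were not run.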
